A study of Polypedilum vanderplanki with 33 samples.

Results

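Larvae of the sleeping chironomid Polypedilum vanderplanki after 48 h of dehydration, the last time of the drying series, were compared with larvae at 0 h, before drying. The comparison rests on 4 of the 33 RNA-seq libraries of the series: the 48 h libraries are replicate 1 from batch 1 and replicate 2 from batch 2, and the 0 h libraries are replicates 1 and 2, both from batch 1. Members were taken by their titles, and a batch 2 library titled 40 h with a duration label of 48 h is thus in neither group. Both groups were whole P. vanderplanki larvae of an inbred line, reared on the same agar and milk diet per the labels, with polyadenylated RNA as the starting material, and drying was the only labelled treatment. The sources used here do not give age, the number of larvae in a library or the speed of drying. A second species named in the labels, P. nubifer, is not analysed here. The remaining 29 libraries, from other times of drying and from rewetting, entered the fit to share the estimate of spread.

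The sleeping chironomid is an insect whose larvae survive the loss of almost all their body water, a state called anhydrobiosis. In this species drying is known to be accompanied by the accumulation of trehalose, a sugar that protects dry membranes and proteins, and of late embryogenesis abundant (LEA) proteins, which keep other proteins from clumping as water is lost. Chaperones, antioxidant proteins and water channels are also known from this process, and many of the genes involved lie in clusters of duplicated copies in the genome. The series title names the heat shock regulatory system, in which a heat shock factor binds short repeats in promoters and switches on chaperone genes. The deposited files pair no gene ID with a name and none of the IDs was found in the reference table, so no gene below can be assigned to these families. Genes are therefore described by level, structure and position, and positions are those of the deposited annotation, for which the sources used here name no genome build.

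The 4 libraries held 34179203 and 22421666 counts at 48 h, against 23752209 and 28495014 counts at 0 h, within the 15015674 to 34179203 counts of the whole series. Counting error is therefore small for all but rare transcripts. The floors below cover counting error only, while SD and SE values include the spread between libraries. The labels do not say whether replicates were separate cultures or sets of larvae, and the p-values therefore speak only of the spread among these libraries, part of which may be technical. No pair was a library deposited in duplicate: over genes with at least 20 counts, the chi-square statistic per degree of freedom between the libraries of a pair was 58.3 at 48 h and 152.5 at 0 h, where counting noise alone gives a value near 1. Across the 17846 tested genes, the median absolute log2 difference between the members of a pair was 0.70 at 48 h and 0.54 at 0 h, so these measures put the pairs in opposite order. The 48 h pair spans both batches and the 0 h pair does not, so batch and condition cannot be told apart in that contrast of spreads. Counts are shares of a library, so a gene's value says nothing of the amount of RNA in a larva, and fewer cells of a type cannot be told apart from less RNA per cell. Replicate 2 at 1 h of rehydration, from batch 2, stood apart from all other libraries and detected 8035 genes. It is in neither group compared here, but it enters the shared estimate of spread, so counts of genes are also given for the fit without it.

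The most direct difference between dried and undried larvae was how few genes held the counts. The single most abundant gene took 6.45% and 6.15% of the counts in the 48 h libraries, against 1.16% and 1.77% in the 0 h libraries. The 10 most abundant genes of each library took 23.9% and 21.8% at 48 h, against 8.93% and 10.2% at 0 h. The 100 most abundant took 52.4% and 49.1% at 48 h, against 34.6% and 37.0% at 0 h. All 3 measures separated the groups without overlap, and the difference for 100 genes was 15.0 percentage points between means of 50.8% ± 2.33 at 48 h and 35.8% ± 1.67 at 0 h (SD, n = 2 each). No test was made, since an exact two-sided permutation test of 2 libraries against 2 cannot give a p below 0.333.

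**Figure D1:**
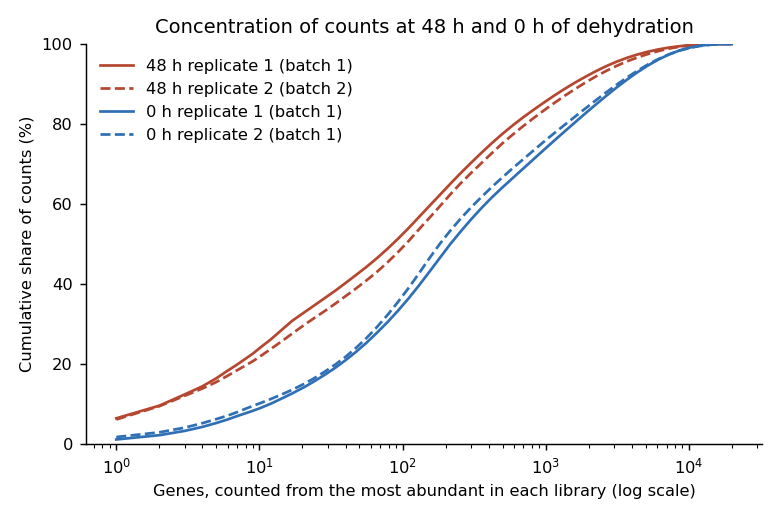
Cumulative share of the counts of a library (y axis, percent) against the number of genes counted from the most abundant (x axis, log scale) for the 2 libraries at 48 h (red) and the 2 at 0 h (blue). At 100 genes the 48 h curves stand at 52.4% and 49.1%, above the 34.6% and 37.0% of the 0 h curves.

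Measures over the whole distribution gave the same order. The top 50% of the counts came from 86 and 106 genes at 48 h, against 216 and 182 genes at 0 h. It took 1545 and 1827 genes at 48 h to reach 90% of the counts, against 3372 and 3185 genes at 0 h. The effective number of genes, the exponential of the Shannon entropy and thus the number of equally abundant genes with the same diversity, was 648 and 772 at 48 h, against 1774 and 1581 at 0 h. Among the 28 other libraries, leaving out the one that stood apart, this number lay between 642, in replicate 1 at 0 h of rehydration, and 2559, at 12 h of rehydration, with a median of 1286. The 48 h libraries were thus near the concentrated end of the series. Replicates 1 and 3 at 40 h, with 650 and 785, lay beside them, as did the libraries at 0 h of rehydration, with 642 and 770. Replicate 2 at 40 h, whose duration label reads 48 h, had 1132.

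Fewer genes reached a moderate share at 48 h, but the number of genes seen at all did not separate the groups. A CPM of at least 1 (counts scaled to a common library total, here relative to total counts) was reached by 10529 and 11741 genes at 48 h, against 13836 and 13791 genes at 0 h. Any count was seen for 18416 and 14232 genes at 48 h, against 16991 and 19959 genes at 0 h, and these ranges overlap. Thinned to the 15015674 counts of the shallowest library, the libraries would show 17792 and 14161 genes at 48 h, against 16920 and 19698 genes at 0 h, which overlap as well. Replicate 2 at 48 h, the batch 2 library, was the lowest of the 4 in both forms.

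With counts this concentrated, fold changes of all genes depend on how the libraries are scaled. The scaling factor is the number by which a total is multiplied before counts are divided by it. By the trimmed mean of M values (TMM), which assumes that most genes do not change, the 48 h libraries had factors of 0.549 and 0.770, against 1.24 and 1.18 at 0 h. Scaled totals came to 18779829 and 17256859 at 48 h, against 29352927 and 33726823 at 0 h. TMM factors of the other 28 libraries ran between 0.627, for replicate 1 at 0 h of rehydration, and 1.57, at 12 h of rehydration, so that the pair at 48 h held the lowest factor of all. The members of the 48 h pair differed from each other by a ratio of 1.40, replicate 2 over replicate 1, while those of the 0 h pair differed by 1.04, replicate 1 over replicate 2.

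**Figure D2:**
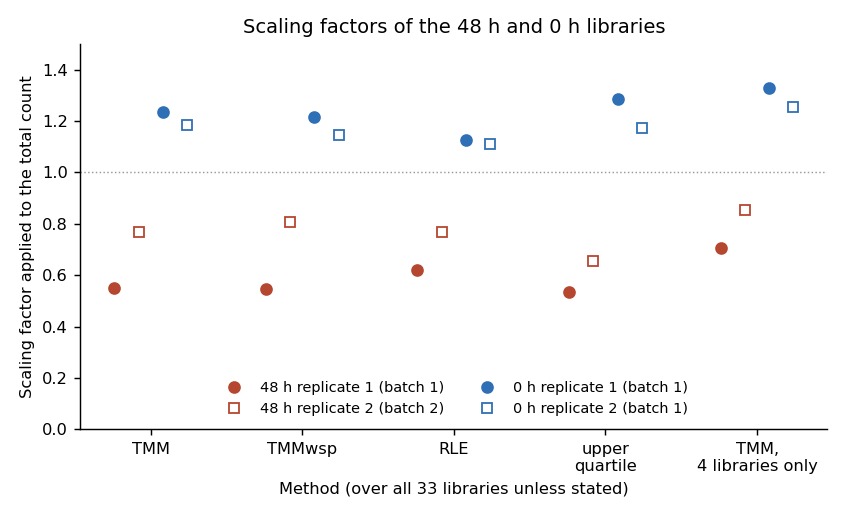
Scaling factors (y axis) of the 2 libraries at 48 h (red) and the 2 at 0 h (blue) by 4 methods over all 33 libraries and by TMM over the 4 libraries alone (x axis). The dotted line marks a factor of 1, which leaves the total as it is. Every 48 h factor lies below every 0 h factor by each method.

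Other methods gave the same order with other sizes. RLE, based on the median ratio to a typical library, gave factors of 0.620 and 0.768 at 48 h, against 1.13 and 1.11 at 0 h. The upper quartile gave 0.536 and 0.655 at 48 h, against 1.28 and 1.17 at 0 h. TMM computed over the 4 libraries alone gave 0.704 and 0.853 at 48 h, against 1.33 and 1.25 at 0 h. The ratio of the geometric means, 48 h over 0 h, was 0.538 with TMM, 0.616 with RLE and 0.483 with the upper quartile. A gene with the same share of the counts in both groups is therefore assigned a log2 fold change of about 0.90 by TMM, 0.70 by RLE and 1.05 by the upper quartile. The third most abundant gene at 0 h shows this. Its model has 3 exons, lies on scaffold 199 between 485428 and 487937 (minus strand) and overlaps another model. It took 1.09% and 1.00% of the counts at 48 h, against 1.07% and 1.18% at 0 h, and its fitted log2 fold change was 0.97 ± 0.48 (SE), which did not pass with all libraries (edgeR, adjusted p = 0.195) and passed without the library that stood apart (edgeR, adjusted p = 0.00691).

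The effect on a typical gene was large. The median CPM of the tested genes relative to total counts was 1.81 and 2.54 at 48 h, against 5.35 and 5.09 at 0 h. After TMM scaling it was 3.303 and 3.305 CPM at 48 h, against 4.33 and 4.303 CPM at 0 h. The median log2 fold change of all tested genes was -0.21 with TMM, -0.41 with RLE, -0.08 with the upper quartile and -1.15 with total counts alone, and changes below are to be read relative to that of the TMM fit. CPM values from here on are TMM-scaled unless a share of counts is named.

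Of the 17846 tested genes, 1169 rose and 1231 fell at 48 h against 0 h, which is 6.55% and 6.9% of those tested and 13.4% together (quasi-likelihood F-test of edgeR, p-values adjusted by Benjamini-Hochberg over all tested genes, threshold 0.05). Without the library that stood apart 2683 rose and 3233 fell, or 15.1% and 18.2% of 17789 genes and 33.3% together, and these included every one of the 1169 and 1231. By the fit, large falls outnumbered large rises: 382 genes fell at least 64-fold, while 110 rose by as much, and 624 fell and 214 rose at least 16-fold. At a change of 4-fold or more the counts were 1063 down and 822 up. Fitted fold changes of genes with no count in a group depend on the fit and are no measured ratio. Among called genes with a count in each library of the other group, 282 had none at 48 h and 54 had none at 0 h.

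**Figure D3:**
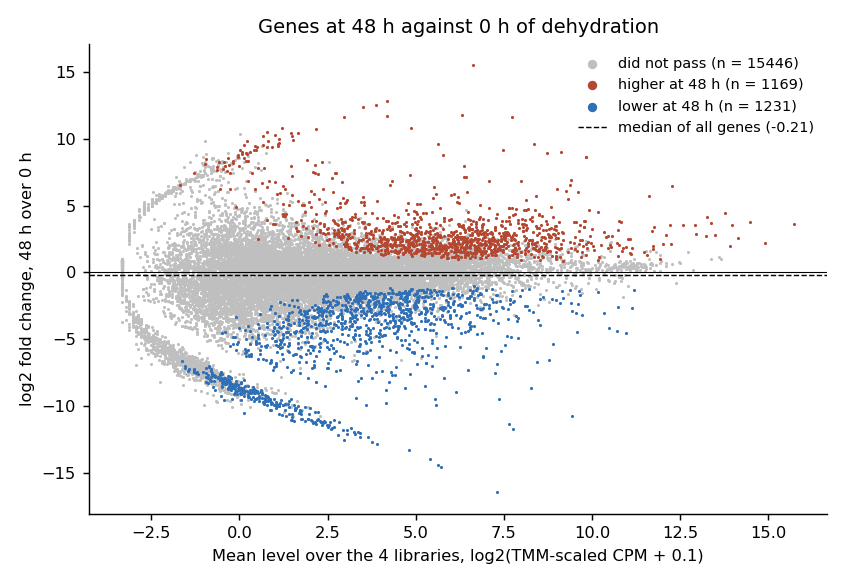
Log2 fold change of 48 h over 0 h (y axis) against the mean level over the 4 libraries (x axis, log2 of TMM-scaled CPM plus 0.1) for the 17846 tested genes, with the 1169 higher at 48 h in red and the 1231 lower in blue. The dashed line marks the median of -0.21, and the curved arms at the left and below hold genes with no count in one of the groups.

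The split of directions rested on the scaling. Of all calls, 48.7% were up with TMM. With total counts alone 515 genes rose and 3168 fell, a share of 14% up. With RLE 1042 rose and 1640 fell (38.9% up), with the upper quartile 1424 rose and 1230 fell (53.7% up), and DESeq2, with its own factors, called 1605 up and 2929 down (35.4% up). No gene called in one direction by the TMM fit was called in the other by any of these. All 1231 falls were also called with total counts alone, and so were 515 of the 1169 rises. These 515 genes thus gained in share of the counts as well as after scaling. Leaving out the factors lowers the fold changes at 48 h, so that every fall was kept was largely set in advance.

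The libraries also set how many genes could be called. Leaving out replicate 2 at 48 h gave 737 up and 305 down, and leaving out replicate 1 at 48 h gave 730 up and 1239 down. Leaving out replicate 1 at 0 h gave 477 up and 665 down, and leaving out replicate 2 at 0 h gave 715 up and 897 down. In the fit without the library that stood apart, the lowest of these counts were 1986 up, without replicate 1 at 48 h, and 1984 down, without replicate 2 at 48 h. Batch 2 holds no 0 h library, so replicate 2 at 48 h is set against 0 h only through a batch term estimated at other times. Without that term 1117 rose and 1265 fell. Within batch 1 alone 48 h is a single library, assumed to vary like the other groups. The library that stood apart is from batch 2, so that fit leaves it out too. The median log2 fold change of all tested genes was -0.26 within batch 1, against -0.21 with all libraries.

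The called genes held very different shares of the counts in the groups. The 1169 genes up held 51.2% and 50.4% of the counts at 48 h, against 14.0% and 17.3% at 0 h. The 1231 genes down held 0.962% and 1.02% at 48 h, against 13.8% and 9.39% at 0 h. The median level of a rising gene was 100.1 and 86.4 CPM at 48 h, against 15.8 and 17.5 CPM at 0 h, and that of a falling gene was 1.28 and 0.638 CPM at 48 h, against 16.26 and 13.2 CPM at 0 h. Before drying the typical genes of both lists thus lay at similar levels. Of the genes up, 1165 had both 48 h libraries above both 0 h libraries, a pattern held by 25.7% of all tested genes, and of the genes down 1227 had both below, as did 34.6% of all tested genes.

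The genes up were also more alike between the dried libraries than other genes. The members of the 48 h pair were at least 2-fold apart for 8.04% of the genes up and 35.4% of the genes down, beside 38.1% of all tested genes. In the 0 h pair the shares were 18.1%, 25.9% and 31.0%. Genes were called partly for a small spread and falling genes had few counts left at 48 h, so these shares are a description only.

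The most abundant genes of the dried larvae were mostly abundant before drying. Of the 100 with the highest mean share at 48 h, 68 (68%) were also among the 100 highest at 0 h, and of the top 10, 4 were shared. All 10 of the top genes at 48 h rose, with a median log2 fold change of 3.59, and they held 23.9% and 21.6% of the counts at 48 h, against 4.75% and 6.54% at 0 h. Of the top 100 at 48 h, 43 rose and none fell, and without the library that stood apart 72 rose and 1 fell. Of the top 100 at 0 h, 14 rose and 8 fell with all libraries, while 42 rose and 14 fell in the other fit. The shares over all tested genes were 6.55% up and 6.9% down with all libraries, and 15.1% up and 18.2% down in the other fit. A list ranked on the 48 h libraries leans towards rises and one ranked on the 0 h libraries towards falls, so these counts are a description.

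The ranked genes after the first had the following values. The third at 48 h, on the plus strand of scaffold 252 (1038691 to 1040097), took 2.79% and 2.58% of the counts at 48 h, against 0.469% and 0.429% at 0 h, and rose by a log2 fold change of 3.79 ± 0.72 (SE; edgeR, adjusted p = 0.00144). The fourth, on scaffold 528 (305337 to 308384), took 2.00% and 1.84% at 48 h, against 0.617% and 0.723% at 0 h (edgeR, adjusted p = 0.00493). The fifth, on scaffold 77936 (46452 to 48897), took 2.04% and 1.61% at 48 h, against 0.271% and 0.415% at 0 h (edgeR, adjusted p = 7.45e-05). All 3 rose, and all 3 overlap another model. The genes at ranks 4 and 5 at 0 h had overlapping shares in the 2 groups: they lie on scaffold 1299 (657794 to 661997) and scaffold 2670 (27561 to 48293), with 1.11% and 0.956% at 48 h, against 0.89% and 1.16% at 0 h for the first of them, and 0.908% and 0.765% at 48 h, against 1.07% and 0.876% at 0 h for the other. Neither passed with all libraries (edgeR, adjusted p = 0.276 and 0.516), and the gene on scaffold 1299 passed without the library that stood apart (edgeR, adjusted p = 0.00101).

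The gene with the largest gain was PvG026018, which is also the most abundant at 48 h. It is a single-exon model of 3727 bases on the minus strand of scaffold 5445 (112 to 3838) and the only gene model there. It had 117383 and 79946 CPM at 48 h, against 9365 and 9507 CPM at 0 h. As a share of the counts it stood at 6.45% and 6.15% at 48 h, against 1.16% and 1.12% at 0 h, so the 48 h libraries were close in share and farther apart after scaling. Its log2 fold change was 3.61 ± 0.49 (SE) (edgeR, adjusted p = 8.01e-05), and 3.39 without the batch term. Its level was 18508 to 19698 CPM at 8 h of dehydration, 51447 to 96034 CPM at 40 h, and 3859 CPM at 48 h of rehydration, below both 0 h libraries.

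The largest rise by ratio was that of PvG019980, a single-exon model of 713 bases on the plus strand of scaffold 37681 (1 to 713), which begins at the first base of the scaffold and is the only model there. It had 2859 and 4195 counts at 48 h, or 152 and 243 CPM, and 0 counts in both 0 h libraries. Against a floor of 3 counts over the 0 h group, or 0.0574 CPM of total counts, it was at least 2170.5-fold higher at 48 h (edgeR, adjusted p = 6.88e-06). It was near absent until late: it had 1.51 to 3.99 CPM at 24 h, 2.19 CPM in the single library at 32 h, and 111 CPM in the single library at 36 h. After rewetting it stood at 35.5 and 52.8 CPM at 3 h and 1.04 CPM at 48 h.

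The largest fall by ratio was that of PvG034871, a model of 4 exons and 378 exonic bases on the minus strand of scaffold 9461 (4294 to 4868). It had 0 counts in both 48 h libraries, against 8213 and 11799 counts at 0 h, or 280 and 350 CPM. Against a floor of 3 counts over the 48 h group, or 0.053 CPM of total counts, it was at least 7226.5-fold lower at 48 h (edgeR, adjusted p = 8.29e-05). This bound holds for the groups as titled: with the batch 2 library titled 40 h counted at its labelled 48 h, where it has 352 counts, the fitted log2 fold change was -6.88 in place of -16.48 (edgeR, adjusted p = 0.0136). It varied widely between replicates in between, with 50.4 to 411 CPM at 12 h. When rewetting began its libraries held 0 and 57 counts, but the transcript then returned for a time. It reached 26.2 CPM in the 6 h rehydration library, 65.7 CPM in the 12 h one and 37.7 CPM in the 24 h one. The 48 h rehydration library again held none.

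The largest loss in CPM was that of PvG014671, a model of 3 exons and 790 exonic bases on the minus strand of scaffold 261 (1167094 to 1168329), which overlaps another model. It had 175 and 183 CPM at 48 h, against 2918 and 4645 CPM at 0 h. Its log2 fold change was -4.57 ± 0.53 (SE) (edgeR, adjusted p = 2.28e-05). It stayed at 1340 to 1978 CPM at 24 h and 2298 CPM at 32 h, then had 201 CPM at 36 h, and after rewetting it was at 30.3 CPM at 6 h and 1224 CPM at 48 h. All 4 of these genes kept their direction and their call under the 26 alternatives tried, with a highest adjusted p between 0.00158 and 0.0136 per gene (edgeR). They were picked as the largest changes among genes called in these same libraries, so this was largely set by the choice.

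Some genes were silent on one side of the comparison. No count was seen in either 0 h library for 7591 of the 28415 genes, and 102 of these had at least 10 counts in each 48 h library. The filter left 83 of the 102 for testing, and 50 of them rose (69 without the library that stood apart). In the other direction 9282 genes had no count in either 48 h library, and 677 of these had at least 10 counts in each 0 h library. The filter left 581 of them, and 272 fell (386 without the library that stood apart). At 100 counts or more in each library of the other group there were 6 genes silent at 0 h, of which 6 rose, and 73 silent at 48 h, of which 69 fell. These genes were picked on the same 4 libraries that were tested, so their direction follows from the choice and their calls largely so, and the counts are a description beside the 6.55% and 6.9% of all tested genes that rose and fell. Replicate 2 at 48 h detected the fewest genes of the 4 libraries, and its part in the count of genes silent at 48 h was not tested.

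Some of the genes called at 48 h were neighbours. A run is here 2 or more consecutive tested genes that all changed at least 2-fold in one direction. Of the 1165 genes up by 2-fold or more, 400 (34.3%) lay in 170 such runs, the longest with 12 genes. Of the 1231 genes down, 387 (31.4%) lay in 175 runs, the longest with 6 genes. Most called genes of either direction thus lay in no run, and the share that would lie in runs without any grouping was not computed, so these counts are a description. Neighbouring models can share reads where they overlap, since the use of strand in counting is not given in the sources used here.

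Both of the longest rising runs lay on scaffold 77936, with a single gene between them. The run of 12 genes covered 31.2 kb (62960 to 94162), with every model on the plus strand and 2 of the 12 overlapping another. Its genes summed to 7474 and 7253 CPM at 48 h, against 1312 and 2080 CPM at 0 h, with log2 fold changes between 1.62 and 4.91. The run of 10 genes covered 21.1 kb (40869 to 61953), with 6 models on the plus strand, 3 on the minus strand and 1 without a strand, and 6 of the 10 overlapped another. Its genes summed to 177933 and 117921 CPM at 48 h, against 18157 and 33762 CPM at 0 h. In shares of the counts this run held 9.77% and 9.07% at 48 h, against 2.24% and 3.99% at 0 h. The gene between the runs was near 0, with 0.107 and 0.870 CPM at 48 h, against 0 and 0.475 CPM at 0 h. Without replicate 1 at 0 h, 4 of the 12 genes and 6 of the 10 genes of these runs were called.

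Scaffold 77936 stood out as a whole. It carries 59 gene models, of which 48 were tested, and 36 of these (75%) rose while none fell, beside 6.55% of all tested genes that rose. Without the library that stood apart 39 rose. Among the 325 scaffolds with at least 10 tested genes, the median share of genes up was 5.26%, and 77936 was the only one where at least 50% rose. The median log2 fold change of its tested genes was 2.72. Its genes held 13.6% and 12.7% of the counts at 48 h, against 3.30% and 5.48% at 0 h. The second most abundant gene at 48 h lay there (51401 to 52185, plus strand, 1 exon), with 3.17% and 3.33% of the counts at 48 h, against 0.969% and 1.77% at 0 h. It overlaps a model on the minus strand, so both counts are uncertain. The outermost tested models at either end of the scaffold did not pass. The number of genes up was 24 with total counts alone and 15 without replicate 1 at 0 h.

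**Figure D4:**
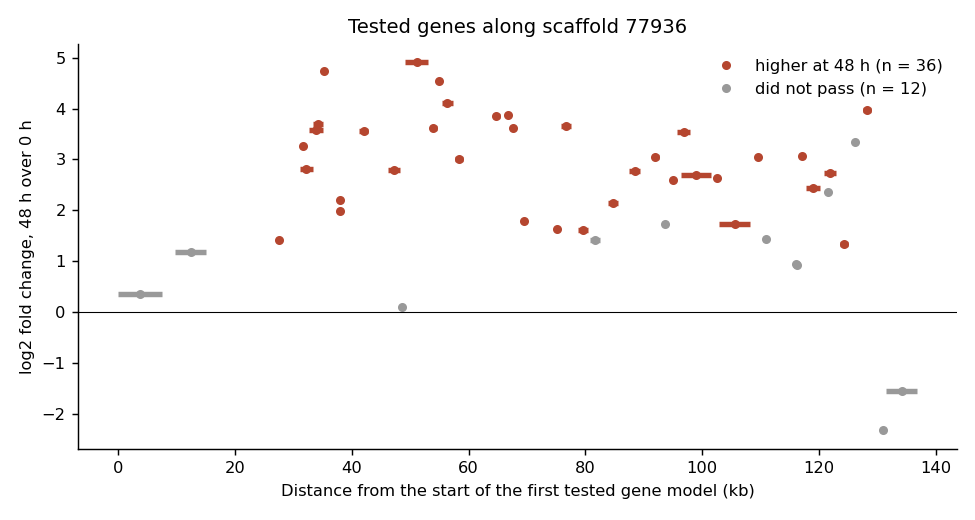
Log2 fold change of 48 h over 0 h (y axis) for the 48 tested genes of scaffold 77936 against the distance from the start of the first tested model (x axis, kb). Points mark the middle of a model and bars its extent, with the 36 genes that rose in red and the others in grey. The genes that rose lie along most of the scaffold, with grey models at both ends and a few between.

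The third rising run had 6 genes on scaffold 1028 (331942 to 342856, 10.9 kb), 5 on the plus strand and 1 on the minus strand. Its genes summed to 5661 and 5046 CPM at 48 h, against 41.4 and 199.9 CPM at 0 h, with a ratio of 44.4 between the means, and the 0 h libraries were themselves several times apart. The log2 fold changes of its genes were between 3.26 and 9.05. The steepest of them (336449 to 337161, plus strand, 2 exons) had 986 and 1249 CPM at 48 h, against 0.273 and 3.80 CPM at 0 h. All 6 genes were called without any 1 of the 4 libraries.

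The longest falling run had 6 genes on scaffold 145 (422357 to 441760, 19.4 kb), 5 on the plus strand and 1 on the minus strand, with 4 to 7 exons each. Its genes summed to 14.1 and 7.65 CPM at 48 h, against 424 and 325 CPM at 0 h. The gene at 425385 to 427074 had 0.213 and 0 CPM at 48 h, against 100.7 and 87.9 CPM at 0 h. Next in length were 5 genes on scaffold 77887 (222642 to 230854), all of which overlap another model, with 8.84 and 7.65 CPM in sum at 48 h, against 189 and 173 CPM at 0 h. The third had 4 genes on scaffold 658 (16742 to 25561), with 7.08 and 4.29 CPM in sum at 48 h, against 40.2 and 43.7 CPM at 0 h. Counting the batch 2 library titled 40 h at its labelled 48 h left 4 of the 6, 3 of the 5 and 1 of the 4 genes called. Without replicate 2 at 48 h, 1 of the 5 genes on scaffold 77887 and 0 of the 4 on scaffold 658 were called, and without any other 1 of the 4 libraries 3 of the 5 and 3 of the 4 were called.

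No scaffold with at least 10 tested genes had 50% of them down. The highest share was on scaffold 498, where 6 of 14 (42.9%) fell and none rose, beside 6.9% of all tested genes that fell. Its genes held 0.00107% and 0.00129% of the counts at 48 h, against 0.168% and 0.0359% at 0 h. On scaffold 494, 4 of 11 fell and none rose, and its genes held 0.0826% and 0.0735% of the counts at 48 h, against 1.24% and 0.426% at 0 h. In both scaffolds the 0 h libraries were several times apart, yet both lay above the 48 h libraries.

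Median changes differed between classes of gene structure. Models with 12 or more exons had a median log2 fold change of 0.34 (694 genes, 5.76% up and 3.46% down), and those with 2 to 3 exons of -0.38 (6967 genes, 5.96% up and 7.66% down). Models with 4 to 11 exons had a median of -0.18 (6212 genes, 8.18% up and 7.84% down). Models with 1 exon had a median of -0.08 (3972 genes, 5.19% up and 4.68% down). These models had low levels, and shares within quartiles of level are given further below. By summed exon length, models of 2500 bases or more had a median of 0.19, with 7.54% up and 3.13% down, and those of 500 to under 1000 bases of -0.39, with 6.12% up and 8.19% down. The corresponding values over all tested genes were -0.21, 6.55% and 6.9%.

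The shares of called genes depended on the library that stood apart. Without it, models with 12 or more exons had 27.2% up and 16.7% down, beside 15.1% and 18.2% of all genes, so that their share of rises was above that of all genes in this fit and below it with all libraries. Models with 4 to 11 exons had 19% up and 22.4% down without it, those with 2 to 3 exons 12.8% up and 18.8% down, and those with 1 exon 10.9% up and 10.7% down. Models of 2500 bases or more had 23.1% up and 16.4% down without it, and those of 500 to under 1000 bases 11.7% up and 16.9% down.

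Since scaling shifts all of these medians, their distance from the median of all genes is given too. It was 0.55 for 12 or more exons, with a range of 0.34 to 0.65 over the 26 alternatives, and 0.41 for 2500 bases or more, with a range of 0.26 to 0.59. For 2 to 3 exons it was -0.16, with a range of -0.18 to -0.10. For single-exon models it was 0.14, and it turned to -0.19 without replicate 1 at 48 h and to -0.20 without the library that stood apart as well. Single-exon models held 24.9% and 23.8% of the counts at 48 h, against 11.5% and 12.32% at 0 h, and PvG026018 alone held 6.45% and 6.15% at 48 h, against 1.16% and 1.12% at 0 h.

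Genes were also grouped by level. In quartiles of mean log2 CPM over the 28 libraries outside the comparison, the highest quartile had 17.5% of its genes up and 6.72% down, with a median log2 fold change of 0.36. The third had 5.25% up and 9.06% down, with a median of -0.37, and the second 2.24% up and 8.03% down, with a median of -0.53. The lowest had 1.19% up and 3.79% down, with a median of -0.77. Without the library that stood apart, the highest quartile had 37.6% up and 20.9% down and the lowest 2.54% up and 7.65% down. These quartiles are not independent of the change, since the ranking libraries include the other times of drying: the genes up had a median of 80.9 CPM at 40 h, against 16.7 CPM at 0 h, and the genes down 1.95 CPM at 40 h, against 14.7 CPM at 0 h. Genes that rose are thereby moved to higher quartiles and genes that fell to lower ones, and the order of the quartiles is no result about level. Longer models and those with many exons are also the more abundant ones in counts: the median over the other libraries was 27.1 CPM for 12 or more exons and 1.06 CPM for 1 exon. Within the quartiles, lowest to highest, 1.7%, 3.73%, 8.66% and 28.7% of single-exon models rose, each above the share of its quartile. With 12 or more exons 0%, 0%, 1.83% and 9.56% rose, each below it, while medians of -0.44, 0.04, 0.11 and 0.50 were each above that of the quartile. Without the library that stood apart, single-exon models stayed above the share of each quartile, with 45.7% up in the highest. With 12 or more exons 0%, 6.54%, 17.7% and 39.5% then rose, beside 2.54%, 6.3%, 13.8% and 37.6% of all genes in the quartiles. In that fit the share for 12 or more exons was thus below that of the quartile only in the lowest one. These values are a description.

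Models that overlap another can share its reads, and models without a strand cannot be placed on either. Of the 7453 tested models that overlap another, 6.74% rose and 6.19% fell, and of the 10393 that do not, 6.42% rose and 7.41% fell. Of the 1046 models without a strand, 3.25% rose and 2.2% fell. Their median level over the other libraries was low, 0.557 CPM against 5.37 CPM for models with a strand. Their median log2 fold change was 0.15, above the -0.21 of all tested genes. Without the library that stood apart 16.5% of the overlapping models rose and 17.8% fell, 14.1% and 18.5% of the others, and 8.07% and 4.57% of those without a strand.

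The genes called at 48 h against 0 h were followed through the other libraries, which took no part in the choice of the list except through the shared spread, scaling and batch term. The share of counts held by the 1169 genes up was between 31.7% and 42.4% in the libraries from 8 to 24 h of dehydration, 26.2% in the single library at 32 h and 49.8% in the single library at 36 h. After rewetting it was 46.0% and 51.0% at 0 h, 33.4% and 35.3% at 3 h, 21.1% at 12 h and 11.1% at 48 h of rehydration, the last below both 0 h libraries of dehydration. The 1231 genes down held 3.99% to 6.39% from 8 to 24 h, 1.44% at 36 h, and 10.8% at 48 h of rehydration, between the 0 h libraries of dehydration. From 6 h of rehydration on each time is a single library without a replicate check.

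**Figure D5:**
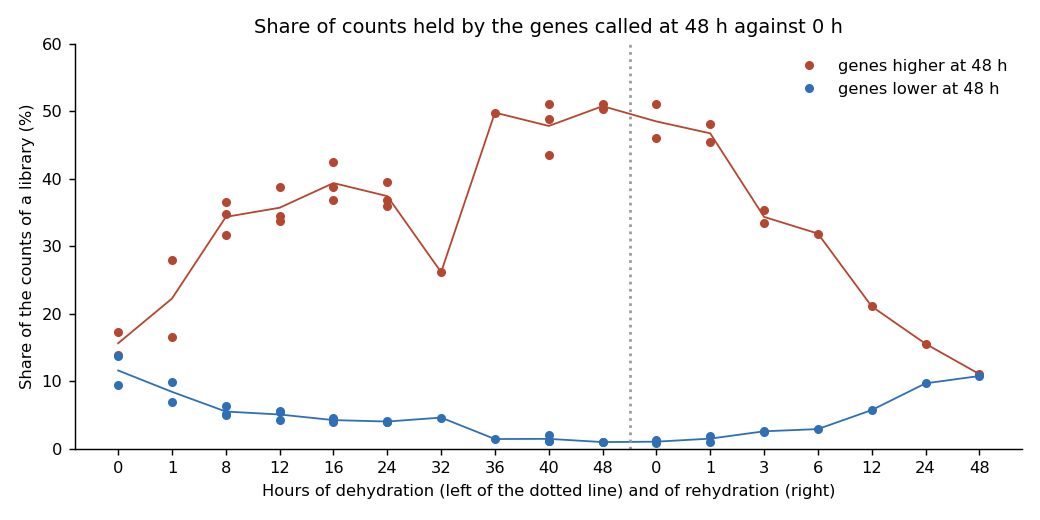
Share of the counts of each library (y axis, percent; points) held by the 1169 genes higher at 48 h (red) and the 1231 lower at 48 h (blue) against time of dehydration and rehydration (x axis, hours, times in order and not to scale); lines join the means. The lists were chosen on the 48 h and 0 h libraries of dehydration, so the gap at those times follows from the choice. At 48 h of rehydration the lists stand at 11.1% and 10.8%.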

How the data were processed

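RNA-seq counts of reads per gene for 28415 genes in 33 libraries were used as the authors deposited them, as whole numbers without normalization. Per the submitters' processing notes, reads were aligned with TopHat2; the sources used here name no version, counting settings, use of strand or genome build. Positions, counted from 1, come from the deposited annotation on 6190 scaffolds, with the exons of a gene merged; 36.2% of the models overlap another.

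The filter kept genes that reached a CPM of 1 in 2 or more libraries. The model was the robust quasi-likelihood fit of edgeR 4.0.16 (in R 4.3.3 with limma 3.58.1) on all 33 libraries with TMM scaling, times as groups and batch as covariate; the adjustment is Benjamini-Hochberg, and an SE is the log2 fold change over the root of F. Titles gave the groups, so a library titled 40 h with a duration label of 48 h stayed at 40 h. Named genes have the largest rise, gain in CPM, fall and loss in CPM among called genes with a 2-fold change, a mean of 5 CPM or more in the higher group, and groups that do not overlap. The 3 longest runs per direction are described. Single scaffolds and silent genes were chosen after their values were seen. The comparison, rules and lists were chosen with earlier results of these data known. No sequence or name was matched to the IDs.

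Batch 2 holds no 0 h library, so the batch term comes from other times. The fit was tested on simulated data, with changes planted in genes with a mean of 5 CPM or more. Apart from these, all simulated libraries shared the same mean profile, without a batch effect or the concentration of counts in dried libraries. The values below therefore do not cover errors from scaling or from batch. With all libraries it recovered 16 of 100 planted 4-fold changes and 79 of 100 planted 16-fold changes, with 2 false calls. Without the 1 h rehydration library that stood apart it recovered 73 and 97 of 100, with 11 false calls. Alternatives were DESeq2 1.42.0, other scalings, filters, batch terms and subsets of libraries.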

Additional observations from a re-analysis of the deposited data

How the results depend on the processing

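The 4 named genes kept their direction and call under all 26 alternatives, and no gene called in one direction was called in the other. The named genes were picked as the largest changes in the same libraries, so their result was largely set by the choice. The counts of 1169 genes up and 1231 down moved with the settings. Leaving out 1 of the 4 libraries gave 477 to 737 up and 305 to 1239 down, with a median log2 fold change of all genes of -0.439 to -0.067 where all libraries gave -0.214. Without the 1 h rehydration library that stood apart, the counts were 2683 up and 3233 down; leaving out 1 of the 4 libraries as well gave 1986 to 2447 up and 1984 to 3660 down, with a median log2 fold change of all genes of -0.62 without replicate 1 at 48 h. In that fit RLE gave 2682 up and 3380 down, the upper quartile 3045 up and 2904 down, total counts 1249 up and 6685 down with a median of -1.225, and no batch term 2687 up and 3208 down. With all libraries, total counts gave 515 up and 3168 down with a median of -1.15, DESeq2 gave 2929 down, batch 1 alone 2043 up, and counting the 40 h library at its labelled 48 h gave 779 down. With the replicate block in place of batch, 1095 rose and 1027 fell. The groups share only the number 1 in their titles, and the deviations of those libraries had a correlation of 0.04. With so few libraries per group, and the 48 h pair split over the batches, this value cannot tell whether the number marks a pairing. The difference in the share of the 100 most abundant genes was 15.0 percentage points, 7.105 without the 10 most abundant genes of each library and 13.3 to 16.6 without 1 of the libraries. The cause of these shifts was not tested. A gene that was not called is not shown to be unchanged, and counts of 0 limit transcripts only to 3 counts over a group.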

Other observations

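The batch 2 library titled as 40 h of dehydration, whose duration label reads 48 h, lay outside the 40 h libraries of batch 1 in each value below. The size of the gap differed between these values. The 1169 genes up at 48 h held 43.5% of its counts, against 51.1% and 48.9% in the batch 1 libraries at 40 h. PvG014671 had 660 CPM in it, against 262 and 175 CPM in those libraries, and PvG026018 had 51447 CPM, against 96034 and 76158 CPM. PvG034871 had 352 counts in it, against 141 and 28 counts in those libraries. PvG019980 had 139 CPM in it, against 161 and 191 CPM, so its gap to the nearer batch 1 library was smaller than that between the batch 1 libraries. On scaffold 77936, the run of 12 rising genes summed to 6323 CPM in it, against 7160 and 6783 CPM, and the run of 10 rising genes to 75821 CPM, against 181538 and 131914 CPM.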
